A study of Saccharomyces cerevisiae with 26 samples.

Results

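Saccharomyces cerevisiae cells passing through meiosis were exposed for 4 h either to benomyl or to 10 °C, and the comparison reported here sets the expression change under the drug against the change in the cold. It uses 8 of the 26 arrays of the series, 2 in each of 4 groups, and the measure is the difference of differences. That measure is the benomyl effect, benomyl minus its solvent control, less the cold effect, chilled cells minus their filtered control. Budding yeast grown in glucose and then in acetate medium at 30 °C were moved to sporulation medium, 0.3% potassium acetate at room temperature, and filtered after 4 h.

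The benomyl group (SB8) was resuspended in sporulation medium with benomyl, added from a stock of 30 mg/ml in dimethyl sulfoxide (DMSO) to a final concentration of 0.4%. The solvent control (SD8) received DMSO at 0.4% alone. The cold group (SC8) went into pre-chilled medium containing DMSO, at a concentration the labels do not give, and stayed at 10 °C. Its control (SR8) was filtered and resuspended in medium, with no DMSO stated. As labelled, the cold effect may thus hold a solvent effect too, and the 2 cannot be told apart in it. This also holds for the classes called cold-specific below. All 4 groups were sampled 4 h after filtration, so they share the age of the culture. The labels give neither strain nor ploidy, and nothing in them says that the 2 arrays of a group came from separate cultures. The p-values therefore measure only the spread between arrays, which may be technical.

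Benomyl binds tubulin and depolymerizes microtubules, and low temperature also destabilizes them, so both treatments act on the meiotic spindle. Sporulation runs as a cascade in yeast. Ime1 and Ime2 start it, recombination genes follow, and the factor Ndt80 then switches on the genes of the meiotic divisions, the prospore membrane and the spore wall. Benomyl is also known as a substrate of yeast drug efflux pumps, while growth in the cold is known to raise genes for ribosome assembly and RNA helicases.

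Levels are array signals on a log scale, taken as log2 from their range, after quantile normalization, and effects are log2 differences ± the standard error of a limma model, with n = 2 arrays in each group unless stated. The words rose and fell are kept for effects with an adjusted p under 0.05. Among 5465 genes tested, 2078 were called for the benomyl effect (38.0%, with 20.4% higher and 17.7% lower) and 2234 for the cold effect (40.9%, with 22.3% higher and 18.6% lower). The difference of the effects was called for 1701 genes (31.1%), with 850 higher and 851 lower, 15.6% each way. Of the genes called for benomyl, 1032 were also called for cold, which is 49.7% of the benomyl calls and 46.2% of the cold calls. Of these, 822 changed in the same direction and 210 in opposite directions. Across genes the effects had a Pearson correlation of 0.404 and a Spearman correlation of 0.295, and they share no control arrays. Replicate arrays of a group correlated at 0.992 to 0.995. Over probe sets, 51.0% of the benomyl calls and 53.6% of the cold calls were rises, and these shares were 36.5% and 41.0% on the values as deposited, without quantile normalization. Of the called differences of effects, 49.9% of probe sets were higher, and 40.4% with arrays centred on their medians. The count of benomyl calls, 2565 probe sets (32.6%), was 1516 without DMSO replicate 2 and 1627 without benomyl replicate 1.

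**Figure D1:**
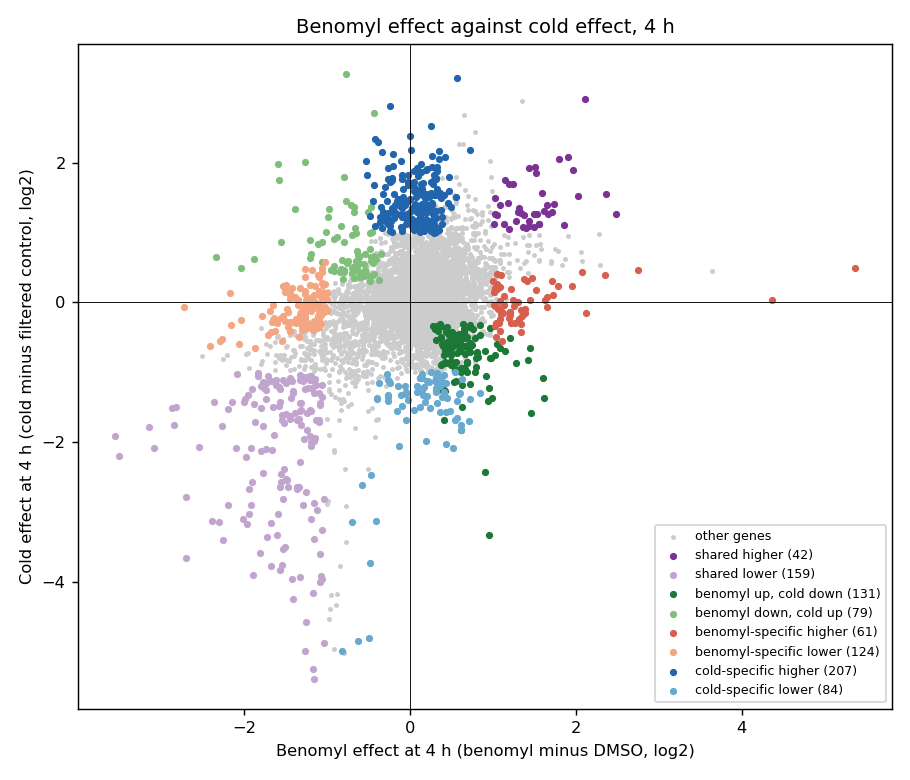
Benomyl effect (x axis, log2) against cold effect (y axis, log2) for the 5465 genes tested, each point 1 gene and each effect a difference of means of 2 arrays. Coloured points are the classes described in the text: 42 shared higher, 159 shared lower, 210 opposite, 185 benomyl-specific and 291 cold-specific genes, with all others in grey.

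The 4 groups did not start from one baseline. The DMSO control and the filtered control differed in 2375 genes (43.5%), of which 448 were at least 2-fold higher with DMSO (8.2%) and 154 at least 2-fold lower (2.82%). DMSO is stated for the first of these controls only. They also belong to different sets of arrays, split here by whether a scan record was used, since the labels name no set. The benomyl arrays lay nearer to the filtered control than to their own solvent control: against the filtered control 352 genes were higher under benomyl (6.44%) and 359 lower (6.57%). Scan records place replicate 1 of the benomyl and DMSO groups on the same day and replicate 2 on another, and scan records of the cold and filtered-control arrays were not analysed here. The solvent and the set of arrays cannot be told apart. For this reason the direct contrast of the 2 treated groups, benomyl minus cold, is given beside each class, although it too crosses the sets of arrays. It was called for 2731 genes (50.0%), 1357 higher under benomyl (24.8%) and 1374 lower (25.1%).

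In every group the summed markers of sporulating diploids exceeded those of haploid or mating cells. The 8 markers of sporulating diploids were all measured above the filter, and their summed linear signal was 6840 to 8087 in the benomyl arrays, 8799 to 8868 with DMSO, 3042 to 3649 in the cold and 7135 to 7676 in the filtered control. The 9 markers of haploid or mating cells, of which 7 passed the filter, summed to 994 to 1000, 1120 to 1183, 1843 to 1880 and 1174 to 1243 in the same order. Most of the rise in the cold came from MFA2, described below.

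Genes of the later sporulation program were lower under both treatments, each against its own control, and many were lower still in the cold. The gene lists used here and below were chosen with earlier results of these data known, so their counts are descriptions. The 16 regulators of the meiotic divisions fell in 15 cases under benomyl and in 15 in the cold, with median effects of -1.23 and -1.69. Over all genes, 17.7% fell under benomyl and 18.6% in the cold, with median effects of 0.13 and 0.03. Of the 19 genes of the prospore membrane and the meiotic outer plaque, which build the membrane around each nucleus, 17 fell under benomyl and 18 in the cold, by medians of -1.28 and -2.68. Of the 24 spore wall genes, 19 fell under benomyl and 21 in the cold, by medians of -1.11 and -3.45. The difference of effects was called higher, meaning a deeper fall in the cold, for 12 of the 19 prospore genes and for 19 of the 24 wall genes, against 4 of the 16 division regulators. Set against the filtered control instead of DMSO, 0 of the 16 division regulators, 1 of the 19 prospore genes and 0 of the 24 wall genes were lower under benomyl. In the direct contrast 15, 18 and 21 of them were higher under benomyl than in the cold. Over all genes the difference was called higher for 15.6%. Against the filtered control 6.57% of all genes were lower under benomyl, and in the direct contrast 24.8% were higher.

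NDT80, the transcription factor that commits cells to the divisions, read 7.80 and 8.29 in the benomyl arrays, 9.26 and 9.21 in the DMSO arrays, 5.90 and 6.03 in the cold arrays and 8.06 and 8.0 in the filtered controls. The benomyl arrays matched the filtered controls, the DMSO arrays stood above both and the cold arrays below all others. The benomyl effect was -1.19 ± 0.31 (adjusted p = 0.00698), the cold effect -2.06 ± 0.31 (adjusted p = 4.62e-05), and their difference, 0.87 ± 0.45 (adjusted p = 0.161), was not called. CLB1, a B-type cyclin of the meiotic divisions, behaved in the same order, with 8.33 and 8.58 in the benomyl arrays, 10.03 in both DMSO arrays, 5.52 and 5.91 in the cold arrays and 8.21 and 8.49 in the filtered controls. Its difference of effects was 1.07 ± 0.45 (adjusted p = 0.0836). SPS1, a kinase needed for closing the prospore membrane, read 10.11 in both benomyl arrays, 11.16 and 11.19 in the DMSO arrays, 5.86 and 5.92 in the cold arrays and 9.70 and 10.0 in the filtered controls, so the cold arrays lay about 4 log2 units below their control. For SPS1 the benomyl effect was -1.06, the cold effect -3.96, and the difference 2.90 ± 0.38 (adjusted p = 2.6e-05).

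At the top of the cascade the difference was called higher about as often as over all genes. IME1, the master inducer, read 12.54 and 12.57 in the benomyl arrays, 12.42 and 12.39 in the DMSO arrays, 12.17 and 12.09 in the cold arrays and 12.39 and 12.45 in the filtered controls, and neither effect nor the difference was called (difference 0.44 ± 0.41 (adjusted p = 0.472)). Across the 12 meiotic entry regulators, 1 rose and 1 fell under benomyl, and 5 fell in the cold, where 18.6% of all genes fell. The difference was called higher for 2, against 15.6% of all genes. In the direct contrast 6 of the 12 were higher under benomyl than in the cold and none lower, where 24.8% of all genes were higher. IME2, the kinase that acts with Ime1, fell by 1.24 under benomyl and by 1.59 in the cold, and the difference of 0.35 ± 0.60 (adjusted p = 0.713) was not called.

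Recombination and synapsis genes fell in the cold and not under benomyl. Of the 26 measured, 24 fell in the cold and none fell under benomyl, where 4 rose, and the difference of effects was called higher for 24, against 15.6% of all genes. Their median effects were 0.40 under benomyl and -1.18 in the cold. ECM11, a component of the synaptonemal complex, read 11.97 and 12.09 in the benomyl arrays, 11.55 and 11.69 in the DMSO arrays, 10.10 and 10.15 in the cold arrays and 11.84 and 11.76 in the filtered controls. Its benomyl arrays were the highest of the 8 and its cold arrays the lowest, and the difference was 2.09 ± 0.20 (adjusted p = 1.12e-06). MSH5, which stabilizes crossover intermediates, read 9.20 and 9.36 in the benomyl arrays, 9.08 in both DMSO arrays, 6.88 and 6.85 in the cold arrays and 8.85 in both filtered controls, with a benomyl effect of 0.20 ± 0.18 (adjusted p = 0.435) and a cold effect of -1.98 ± 0.18 (adjusted p = 1.2e-07). SPO16, a partner in synapsis initiation, and HOP2, which acts in homologous pairing, had differences of 2.47 ± 0.32 (adjusted p = 2.6e-05) and 1.58 ± 0.23 (adjusted p = 6.73e-05). In the direct contrast of treated groups, 25 of the 26 were higher under benomyl than in the cold.

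**Figure D2:**
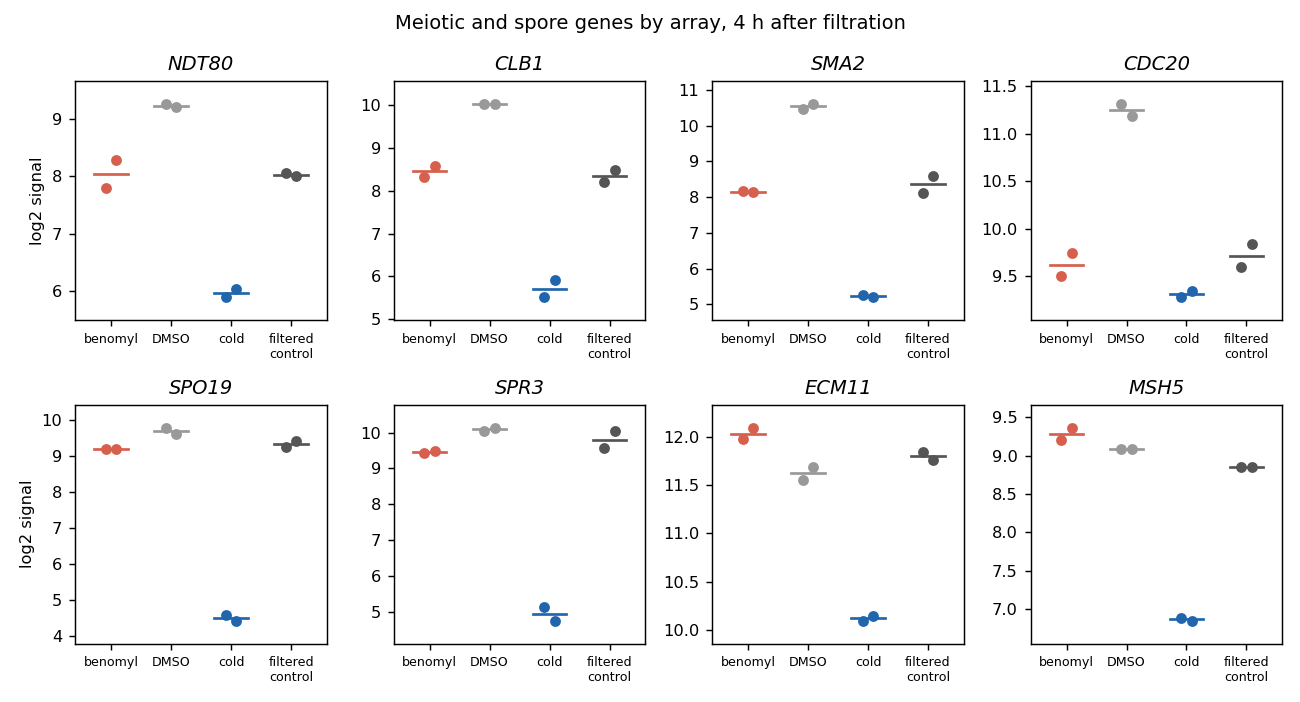
Log2 signal of 8 meiotic and spore genes in each of the 8 arrays (points) by group, with horizontal bars for the group means. In all 8 panels both cold arrays lie below both benomyl arrays, and in the panels of NDT80, CLB1, SMA2 and CDC20 the DMSO arrays lie highest.

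Genes that fell at least 2-fold under both treatments numbered 159 (2.91% of genes tested). The difference of effects was called for 58 of them, 47 with the deeper fall in the cold, and for 58 its 95% interval lay within 2-fold either way. Their median effects were -1.49 under benomyl and -1.75 in the cold. SMA2, required for spore membrane assembly, read 8.17 and 8.13 in the benomyl arrays, 10.47 and 10.60 in the DMSO arrays, 5.25 and 5.21 in the cold arrays and 8.11 and 8.60 in the filtered controls, and fell by 2.39 under benomyl and 3.13 in the cold, with a difference of 0.74 ± 0.32 (adjusted p = 0.0954). SMA1, of the same process, had a difference of 1.15 ± 0.34 (adjusted p = 0.0182). The adjusted p of SMA1 was 0.08 without benomyl replicate 2, 0.0589 without DMSO replicate 2, 0.0627 without cold replicate 1 and 0.109 without filtered control replicate 2. UBC11, a ubiquitin-conjugating enzyme, read 8.77 and 8.82 in the benomyl arrays, 10.87 and 11.32 in the DMSO arrays, 5.97 and 5.66 in the cold arrays and 8.70 and 9.24 in the filtered controls, and its difference was 0.85 ± 0.35 (adjusted p = 0.08). STU2, a microtubule plus-end protein, had effects of -1.94 and -2.68, both called, and the difference of 0.74 ± 0.29 (adjusted p = 0.0661) was not called.

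For a few of these genes the benomyl effect was the deeper against its own control. GAT4, a GATA-type zinc finger gene, read 7.62 and 7.24 in the benomyl arrays, 10.83 and 11.07 in the DMSO arrays, 6.21 and 6.39 in the cold arrays and 8.41 and 8.59 in the filtered controls, so its benomyl arrays lay below the filtered controls as well as the DMSO arrays. Its difference of effects was -1.32 ± 0.25 (adjusted p = 0.000877). WSC4, a cell wall stress sensor, had a difference of -1.09 ± 0.25 (adjusted p = 0.00303). With either control used for both treatments these differences turned to 1.14 (adjusted p = 4.58e-05) for GAT4 and 0.69 (adjusted p = 0.00348) for WSC4. ARO10, a decarboxylase of aromatic amino acid breakdown, fell about equally, with 7.94 and 8.41 in the benomyl arrays, 10.83 and 10.92 in the DMSO arrays, 6.97 and 7.10 in the cold arrays and 9.86 and 9.80 in the filtered controls and a difference of 0.09, 95% interval -0.41 to 0.59. SRD1, linked to ribosomal RNA processing, read 7.69 and 7.35 in the benomyl arrays, 10.07 and 10.37 in the DMSO arrays, 3.89 and 4.16 in the cold arrays and 7.32 and 8.06 in the filtered controls, and its difference of 0.96 ± 0.36 (adjusted p = 0.0531) missed the threshold. The unnamed reading frames YGL230C and YER085C fell under both treatments, with benomyl effects of -2.19 and -2.09 and cold effects of -2.91 and -2.09.

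The shared fall depended on the choice of control. Of the 159 genes, 157 were called higher in the DMSO control than in the filtered control, and against the filtered control 10 were lower under benomyl and 7 higher. When the filtered control served both treatments, 6 of the 159 remained in the class, and with the DMSO control for both, all 159 did. The direct contrast placed 156 of the 159 higher under benomyl than in the cold, by a median of 1.86.

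Genes that rose at least 2-fold under both treatments were fewer, 42 (0.769%), with median effects of 1.47 and 1.29. The difference was called for 2 of them, and for 20 its 95% interval lay within 2-fold. SIP18, a desiccation-stress protein that binds phospholipids, read 9.80 and 9.95 in the benomyl arrays, 7.72 and 7.80 in the DMSO arrays, 11.34 and 11.22 in the cold arrays and 8.37 and 8.36 in the filtered controls, and rose by 2.11 under benomyl and 2.91 in the cold, with a difference of -0.80 ± 0.46 (adjusted p = 0.213). PHO84, the high-affinity phosphate transporter, read 8.88 and 7.96 in the benomyl arrays, 6.53 and 6.51 in the DMSO arrays, 8.72 and 9.51 in the cold arrays and 6.95 and 7.10 in the filtered controls, and its difference was -0.19, 95% interval -0.95 to 0.57. CDS1, which makes CDP-diacylglycerol for phospholipid synthesis, rose by 1.59 and 1.57, with a difference of 0.02 and an interval of -0.50 to 0.53. VHT1, the biotin transporter, read 12.02 and 11.61 in the benomyl arrays, 9.54 and 9.37 in the DMSO arrays, 11.84 and 11.93 in the cold arrays and 10.46 and 10.20 in the filtered controls, and PAI3, an inhibitor of vacuolar proteinase A, read 9.89 and 10.0 in the benomyl arrays, 7.90 and 7.95 in the DMSO arrays, 9.67 in both cold arrays and 8.04 and 8.24 in the filtered controls. Both rose under each treatment, and their differences of 0.80 ± 0.38 (adjusted p = 0.136) and 0.49 ± 0.50 (adjusted p = 0.514) were not called. ADH2, the glucose-repressed alcohol dehydrogenase, GDH3, a glutamate dehydrogenase, and RTC3 completed the leading genes, with differences of 0.07, -0.33 and -0.25, none of them called.

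Against the filtered control, 22 of the 42 were called higher under benomyl and none lower, and 15 stayed in the class with that control for both treatments. With the DMSO control for both, 40 stayed. In the direct contrast 22 were lower under benomyl than in the cold and 2 were higher.

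Several drug efflux and detoxification genes rose with benomyl. Genes specific to benomyl and higher numbered 61 (1.12%), or 36 on the values as deposited and 38 with arrays centred on their medians, and for 58 of them the 95% interval of the cold effect lay within 2-fold. JLP1, an enzyme that releases sulfur from sulfonates, read 11.20 and 10.61 in the benomyl arrays, 5.50 and 5.57 in the DMSO arrays, 6.34 and 6.60 in the cold arrays and 5.98 in both filtered controls. Both benomyl arrays stood about 4 log2 units or more above every other array, and the benomyl effect was 5.37 ± 0.21 (adjusted p = 5.31e-12), the cold effect 0.49 ± 0.21 (adjusted p = 0.0718) and the difference 4.88 ± 0.29 (adjusted p = 6.14e-09). The neighbouring reading frame YLL056C read 12.08 and 11.23 in the benomyl arrays, 7.28 in both DMSO arrays, 7.43 and 7.35 in the cold arrays and 7.38 and 7.32 in the filtered controls, with a difference of 4.33 ± 0.43 (adjusted p = 1.81e-06). SNQ2, an efflux pump of the ABC family, read 11.71 and 11.37 in the benomyl arrays, 8.01 and 7.79 in the DMSO arrays, 8.71 and 8.78 in the cold arrays and 8.33 and 8.25 in the filtered controls, and rose by 3.64 under benomyl. It also rose in the cold, by 0.45 ± 0.15 (adjusted p = 0.0218), so that its difference of 3.19 ± 0.21 (adjusted p = 1.52e-08) stands outside the benomyl-specific class.

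FLR1, a membrane transporter known for benomyl resistance, read 10.37 and 8.66 in the benomyl arrays, 7.83 and 7.65 in the DMSO arrays, 8.25 and 8.36 in the cold arrays and 8.0 and 8.12 in the filtered controls. Its benomyl arrays were far apart, 10.37 on the first scan day and 8.66 on the second, and both lay above all others. Within the scan days its benomyl effect was 2.54 and 1.02, and its difference of effects was 1.53 ± 0.51 (adjusted p = 0.0316). That call was lost on leaving out any array other than benomyl replicate 2, with an adjusted p from 0.0556 without DMSO replicate 1 to 0.205 without benomyl replicate 1. PDR5, another ABC pump, whose probes may also read a near-identical gene, rose by 1.19, and its difference of 0.74 ± 0.28 (adjusted p = 0.0568) missed the threshold. Across 14 multidrug resistance genes, 11 rose under benomyl and none fell, where 20.4% of all genes rose. In the cold 5 of the 14 rose and none fell, against 22.3% of all genes, and the difference was called higher for 3, close to the 15.6% of all genes. SNG1, which confers resistance to nitrosoguanidine, read 11.12 and 10.17 in the benomyl arrays, 8.36 and 8.23 in the DMSO arrays, 9.03 and 9.04 in the cold arrays and 8.64 and 8.66 in the filtered controls, again higher in the benomyl array of the first scan day. GTT2, a glutathione transferase, read 11.14 and 10.21 in the benomyl arrays, 9.14 and 8.94 in the DMSO arrays, 9.31 and 9.34 in the cold arrays and 9.35 and 9.24 in the filtered controls, and TRX2, a thioredoxin, rose by 1.10 with a difference of 1.27 ± 0.16 (adjusted p = 2.07e-05). Of 26 genes listed as targets of Yap1, the oxidative stress factor, or of oxidative stress, 15 rose and 3 fell under benomyl. In the cold 10 rose and 4 fell, and the difference was called higher for 9 and lower for 1.

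AGP3, an amino acid permease, YNL134C, a reading frame similar to alcohol dehydrogenases, and EHT1, which makes fatty acid ethyl esters, had differences of 2.27 ± 0.28 (adjusted p = 1.81e-05), 2.27 ± 0.39 (adjusted p = 0.000318) and 1.71 ± 0.30 (adjusted p = 0.000439). The cytosolic isocitrate dehydrogenase gene IDP2 read 10.46 in both benomyl arrays, 9.01 and 9.23 in the DMSO arrays, 8.85 and 9.09 in the cold arrays and 9.48 and 9.30 in the filtered controls, with a difference of 1.76 ± 0.51 (adjusted p = 0.0147), and its adjusted p was 0.0504, 0.051 and 0.0518 without replicate 1 of the DMSO, cold and filtered-control groups. Of the 61 genes, 45 were higher under benomyl than in the cold in the direct contrast, none was lower, and 38 were higher than in the filtered control. Taking the filtered control for both treatments left 13 in the class, and with the DMSO control 26.

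Metabolic genes split by pathway. Over all genes 20.4% rose and 17.7% fell under benomyl, and 22.3% rose and 18.6% fell in the cold. The difference was called for 15.6% of all genes each way. These shares also apply to the lists of the next paragraph. Of 20 genes of sulfate assimilation and methionine synthesis, 14 rose under benomyl and none fell, against 6 and 1 in the cold. The difference was called higher for 8, and 7 were higher under benomyl than in the filtered control, against 6.44% of all genes. MET10, a sulfite reductase subunit, read 10.89 and 10.66 in the benomyl arrays, 9.27 and 9.37 in the DMSO arrays, 9.27 and 9.17 in the cold arrays and 9.96 and 9.80 in the filtered controls, with a difference of 2.12 ± 0.30 (adjusted p = 5.91e-05), and MET3, the ATP sulfurylase, had one of 1.57 ± 0.28 (adjusted p = 0.000511). Of 30 genes of the TCA cycle and respiration, 17 rose and 2 fell under benomyl, while 1 rose and 4 fell in the cold. The difference was called higher for 16 and lower for 1, and 9 were higher under benomyl than in the filtered control. QCR2, of respiratory complex III, read 11.88 and 11.50 in the benomyl arrays, 10.77 and 10.45 in the DMSO arrays, 10.70 and 10.77 in the cold arrays and 11.48 and 11.33 in the filtered controls, with a difference of 1.74 ± 0.22 (adjusted p = 1.92e-05). ATP16, of the ATP synthase, and COX8, of cytochrome oxidase, had differences of 1.22 ± 0.18 (adjusted p = 7.86e-05) and 1.30 ± 0.21 (adjusted p = 0.000193).

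Ergosterol synthesis, which builds the yeast membrane sterol, had 10 of 22 genes higher under benomyl and none lower. In the cold 6 were higher and 3 lower, and the difference was higher for 7. Against the filtered control 3 of the 22 were higher under benomyl, and 9 were lower with DMSO. ERG5, a sterol desaturase, read 10.61 and 10.22 in the benomyl arrays, 8.85 and 8.77 in the DMSO arrays, 8.13 and 8.30 in the cold arrays and 9.46 and 9.13 in the filtered controls, rose by 1.60 with the drug and fell by 1.08 in the cold, with a difference of 2.68 ± 0.21 (adjusted p = 9.91e-08). ERG3, the C-5 sterol desaturase, read 11.01 and 10.86 in the benomyl arrays, 9.30 and 9.28 in the DMSO arrays, 9.86 and 9.97 in the cold arrays and 10.01 and 9.94 in the filtered controls, with a difference of 1.70 ± 0.24 (adjusted p = 4.76e-05). Of 15 iron uptake genes, 9 rose and none fell under benomyl, while 1 rose and 4 fell in the cold. The difference was higher for 5 and lower for 1. Against the filtered control 4 were higher under benomyl and 1 lower. SIT1, a siderophore transporter, read 12.13 and 12.31 in the benomyl arrays, 10.53 and 10.69 in the DMSO arrays, 10.09 and 10.06 in the cold arrays and 11.46 and 11.44 in the filtered controls, so the benomyl arrays were the highest and the cold arrays the lowest. Its difference was 2.99 ± 0.41 (adjusted p = 4.23e-05).

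**Figure D3:**
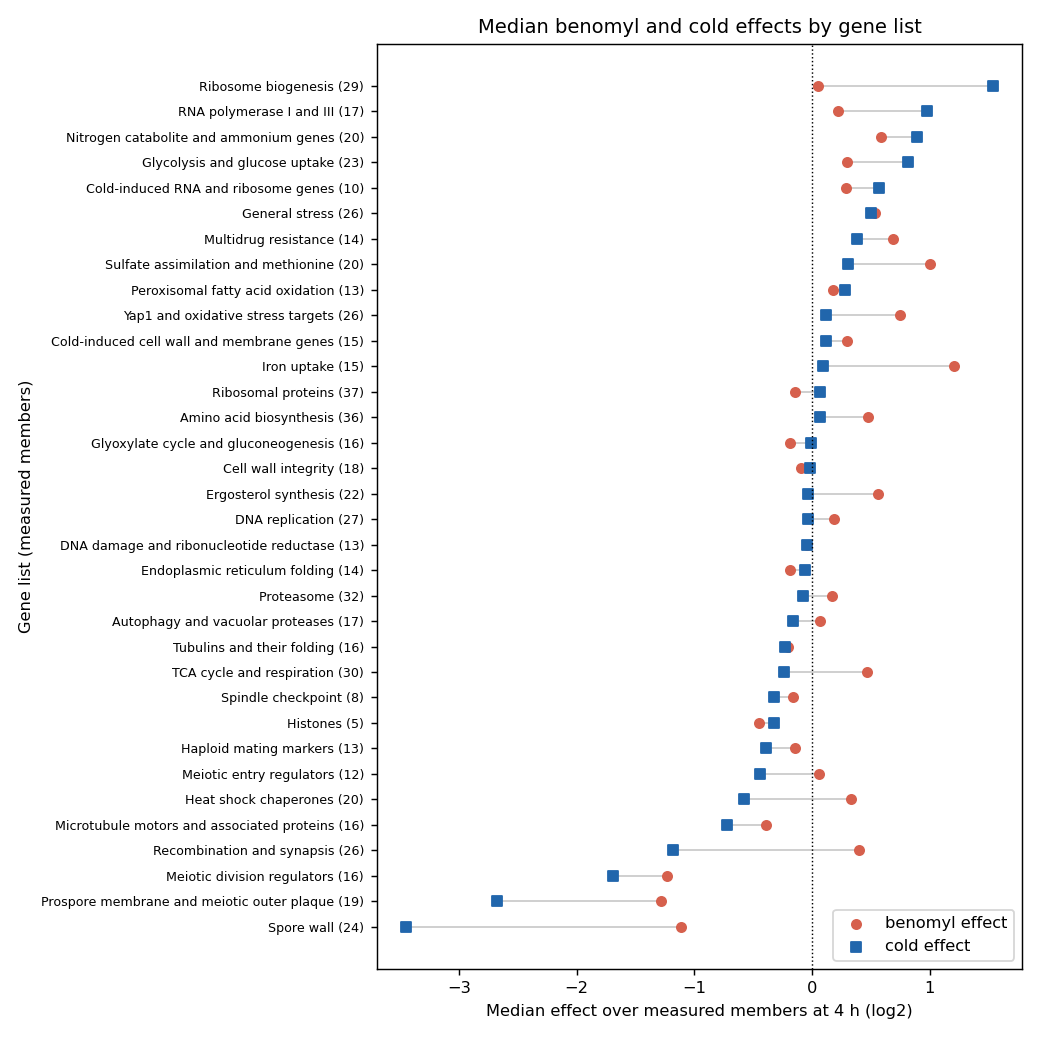
Median benomyl effect and median cold effect (log2, x axis) over the measured members of each gene list (y axis), with the number of members in brackets and a dotted line at 0. The spore wall list has the lowest cold median, -3.45, beside a benomyl median of -1.11, and ribosome biogenesis the highest cold median, 1.54, beside 0.05.

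Opposite changes, with both effects called, were found in 210 genes, most of them moderate. The count was 137 without benomyl replicate 1, 139 without benomyl replicate 2, 119 without DMSO replicate 2, 134 without cold replicate 2, and 130 and 134 without filtered control replicates 1 and 2. In 131 genes (2.4%) the level rose under benomyl and fell in the cold, with medians of 0.60 and -0.65, and 3 of these passed 2-fold both ways. These numbered 81 with arrays centred on their medians, against 102 genes of the reverse pattern, which is the smaller class on the quantile-normalized scale. Leaving out single arrays gave 63 to 92, lowest without DMSO replicate 2. AGP1, a broad amino acid permease, read 11.97 and 11.53 in the benomyl arrays, 10.90 and 10.70 in the DMSO arrays, 8.0 and 8.28 in the cold arrays and 11.51 and 11.42 in the filtered controls. The cold arrays alone were low, over 2 log2 units below every other array, and the difference was 4.28 ± 0.23 (adjusted p = 1.52e-09). SOL4, an enzyme of the pentose phosphate pathway, read 11.38 and 11.22 in the benomyl arrays, 10.02 and 9.65 in the DMSO arrays, 9.36 and 9.05 in the cold arrays and 10.83 and 10.74 in the filtered controls. The glucose transporter HXT5 rose by 0.92 under benomyl and had a cold effect of -1.06. The differences of SOL4 and HXT5 were 3.04 ± 0.57 (adjusted p = 0.000678) and 1.98 ± 0.30 (adjusted p = 0.00011). MMS2, of post-replication repair, had a benomyl effect of 0.95, a cold effect of -1.23 and a difference of 2.18 ± 0.16 (adjusted p = 5.22e-08). The reading frame YBR053C followed with a difference of 2.35 ± 0.28 (adjusted p = 1.21e-05).

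Several chaperone genes moved apart. Of 20 heat shock chaperone genes, 7 rose and 3 fell under benomyl, against 20.4% and 17.7% of all genes. In the cold 1 rose and 10 fell, against 22.3% and 18.6%. The difference was called higher for 7 and lower for none, against 15.6% each way. Against the filtered control 3 of the 20 were higher under benomyl. AHA1, an activator of Hsp90, read 9.70 and 9.75 in the benomyl arrays, 8.65 and 8.81 in the DMSO arrays, 7.61 and 7.59 in the cold arrays and 8.94 and 8.99 in the filtered controls, with a difference of 2.36 ± 0.17 (adjusted p = 5.22e-08). HSP78, a mitochondrial disaggregase, and CPR6, an Hsp90 partner, had differences of 1.68 ± 0.29 (adjusted p = 0.000329) and 1.27 ± 0.17 (adjusted p = 2.95e-05). POL2, the catalytic subunit of DNA polymerase epsilon, read 10.30 and 10.35 in the benomyl arrays, 9.76 and 9.73 in the DMSO arrays, 9.31 and 9.50 in the cold arrays and 10.35 and 10.43 in the filtered controls, and its difference was 1.56 ± 0.19 (adjusted p = 1.3e-05). Among 27 DNA replication genes the difference was higher for 8 and lower for none, against 15.6% of all genes each way. DYN1, the dynein heavy chain, read 9.42 and 9.38 in the benomyl arrays, 8.94 and 9.04 in the DMSO arrays, 7.89 and 7.93 in the cold arrays and 9.18 and 9.14 in the filtered controls, with a difference of 1.66 ± 0.21 (adjusted p = 2.24e-05).

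In 79 genes (1.45%) the level fell under benomyl and rose in the cold, with medians of -0.69 and 0.64, and 5 passed 2-fold both ways. The count was 51 without cold replicate 2 and 52 without filtered control replicate 1. HXK2, the main glucose-phosphorylating hexokinase, read 5.57 and 5.50 in the benomyl arrays, 6.35 and 6.26 in the DMSO arrays, 10.04 and 9.90 in the cold arrays and 6.58 and 6.81 in the filtered controls. Both cold arrays stood more than 3 log2 units above every other array. Its benomyl effect was -0.77 ± 0.27 (adjusted p = 0.0343), its cold effect 3.27 ± 0.27 (adjusted p = 3.11e-08) and the difference -4.04 ± 0.38 (adjusted p = 1.05e-06). DBP3, an RNA helicase of ribosome assembly, read 6.72 and 6.50 in the benomyl arrays, 8.22 and 8.16 in the DMSO arrays, 8.75 and 8.78 in the cold arrays and 7.03 and 7.0 in the filtered controls, with a difference of -3.33 ± 0.51 (adjusted p = 0.00011). DRS1, another such helicase, fell by 2.34 with the drug and rose by 0.65 in the cold. PUT1, the proline oxidase, read 8.28 and 8.05 in the benomyl arrays, 9.14 and 9.21 in the DMSO arrays, 10.25 and 10.19 in the cold arrays and 9.23 and 9.21 in the filtered controls, and HXT2, a glucose transporter, 9.12 and 8.65 in the benomyl arrays, 9.83 and 9.92 in the DMSO arrays, 10.53 and 10.71 in the cold arrays and 9.29 and 9.52 in the filtered controls.

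PDR12, an efflux pump for weak acids, read 8.62 and 8.41 in the benomyl arrays, 9.49 and 9.50 in the DMSO arrays, 10.26 and 10.12 in the cold arrays and 8.94 and 8.75 in the filtered controls, with a difference of -2.32 ± 0.29 (adjusted p = 2.02e-05), so it fell with the drug where SNQ2 and FLR1 rose. THI73, a putative permease, TIF11, the initiation factor eIF1A, and the reading frame YCR087C-A had differences of -3.28 ± 0.23 (adjusted p = 4.11e-08), -1.83 ± 0.24 (adjusted p = 3.21e-05) and -2.71 ± 0.22 (adjusted p = 1.41e-07). FDH1, formate dehydrogenase, whose probes may also read a near-identical gene, had one of -3.57 ± 0.63 (adjusted p = 0.000439).

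For both opposite classes the direct contrast kept the direction. Of the 131, 117 were higher under benomyl than in the cold and none lower, and of the 79, 71 were lower and none higher. Taking the filtered control for both treatments left 33 of the 131 and 12 of the 79 in their class, and with the DMSO control 58 and 30.

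Ribosome assembly genes rose in the cold and, as a list, not under benomyl. All 29 measured ribosome biogenesis genes rose in the cold, where 22.3% of all genes rose, while 2 rose and 1 fell under benomyl, and the difference was called lower for 27 against 15.6% of all genes. Of 17 genes listed for RNA polymerases I and III, 14 rose in the cold and none fell. Under benomyl 4 rose and 2 fell, and the difference was lower for 8. NSR1, a nucleolar protein of pre-rRNA processing, read 6.68 and 6.05 in the benomyl arrays, 6.65 and 6.57 in the DMSO arrays, 9.97 and 10.16 in the cold arrays and 7.23 and 7.29 in the filtered controls. The cold arrays alone were high, with a cold effect of 2.81 ± 0.24 (adjusted p = 6.45e-08), a benomyl effect of -0.24 ± 0.24 (adjusted p = 0.49) and a difference of -3.05 ± 0.35 (adjusted p = 7.81e-06). RLP24, a pre-60S assembly factor, read 6.64 and 6.28 in the benomyl arrays, 6.50 and 6.41 in the DMSO arrays, 9.30 and 9.75 in the cold arrays and 7.16 and 7.14 in the filtered controls, and NOP1, the fibrillarin that methylates ribosomal RNA, 7.32 and 7.02 in the benomyl arrays, 7.30 and 7.27 in the DMSO arrays, 9.86 and 9.98 in the cold arrays and 7.96 and 7.83 in the filtered controls. Their differences were -2.38 ± 0.31 (adjusted p = 2.6e-05) and -2.13 ± 0.27 (adjusted p = 2.4e-05). Subunits of RNA polymerase I followed, with a difference of -2.23 ± 0.22 (adjusted p = 1.35e-06) for RPC40, which is shared with polymerase III, and of -1.17 ± 0.21 (adjusted p = 0.000403) for RPA135. Ribosomal protein genes, with 37 of 60 listed members measured, moved less against their own controls. In the cold 4 rose and none fell, with a median effect of 0.07, and under benomyl 1 rose and 4 fell. In the direct contrast 31 of the 37 were lower under benomyl than in the cold, with a median of -0.76, where 25.1% of all genes were lower. Against the filtered control 31 were lower under benomyl and 31 were lower with DMSO.

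Genes specific to the cold and higher numbered 207 (3.79%), the largest of the 8 classes, and for 195 of them the 95% interval of the benomyl effect lay within 2-fold. Permeases for poor nitrogen sources were among the leading genes. PUT4, the proline permease, read 8.50 and 8.73 in the benomyl arrays, 8.16 and 7.93 in the DMSO arrays, 11.93 and 11.88 in the cold arrays and 8.67 and 8.69 in the filtered controls, with a difference of -2.65 ± 0.47 (adjusted p = 0.000471). DAL4, the allantoin permease, read 8.99 and 7.67 in the benomyl arrays, 8.88 and 8.62 in the DMSO arrays, 10.55 and 10.96 in the cold arrays and 8.26 and 8.57 in the filtered controls, and DAL5, the allantoate permease, 8.95 and 8.17 in the benomyl arrays, 8.96 and 9.19 in the DMSO arrays, 10.79 and 10.87 in the cold arrays and 9.04 and 9.0 in the filtered controls. Of 20 nitrogen catabolite genes 12 rose under each treatment, where 20.4% of all genes rose under benomyl and 22.3% in the cold. There were 3 falls under benomyl and 1 in the cold. The difference was lower for 8 and higher for 2, against 15.6% of all genes each way. Set against own controls, the list as a whole was thus not confined to the cold. Against the filtered control, 0 of the 20 were higher under benomyl. PDC1, pyruvate decarboxylase, had a cold effect of 1.92 ± 0.20 (adjusted p = 6.5e-07) and a difference of -2.19 ± 0.29 (adjusted p = 2.6e-05), and of 23 glycolysis and glucose uptake genes 14 rose in the cold and 8 under benomyl.

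MFA2, a gene for the mating pheromone a-factor, read 7.06 and 7.0 in the benomyl arrays, 7.39 and 7.34 in the DMSO arrays, 9.93 and 9.94 in the cold arrays and 7.80 and 7.78 in the filtered controls. Its difference was -2.49 ± 0.19 (adjusted p = 9.6e-08), while among all 13 measured mating genes 1 rose and 6 fell in the cold. DIC1, the mitochondrial dicarboxylate carrier, and GID10, a recognition subunit of the GID ubiquitin ligase, had differences of -2.55 ± 0.31 (adjusted p = 1.3e-05) and -2.68 ± 0.49 (adjusted p = 0.000557). SPI1, a cell wall protein of the stress response, read 7.97 and 7.96 in the benomyl arrays, 8.31 and 8.17 in the DMSO arrays, 10.21 and 9.92 in the cold arrays and 8.22 and 8.37 in the filtered controls. In the direct contrast all 207 genes were lower under benomyl than in the cold. With the filtered control for both treatments 159 stayed in the class and with the DMSO control 192.

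**Figure D4:**
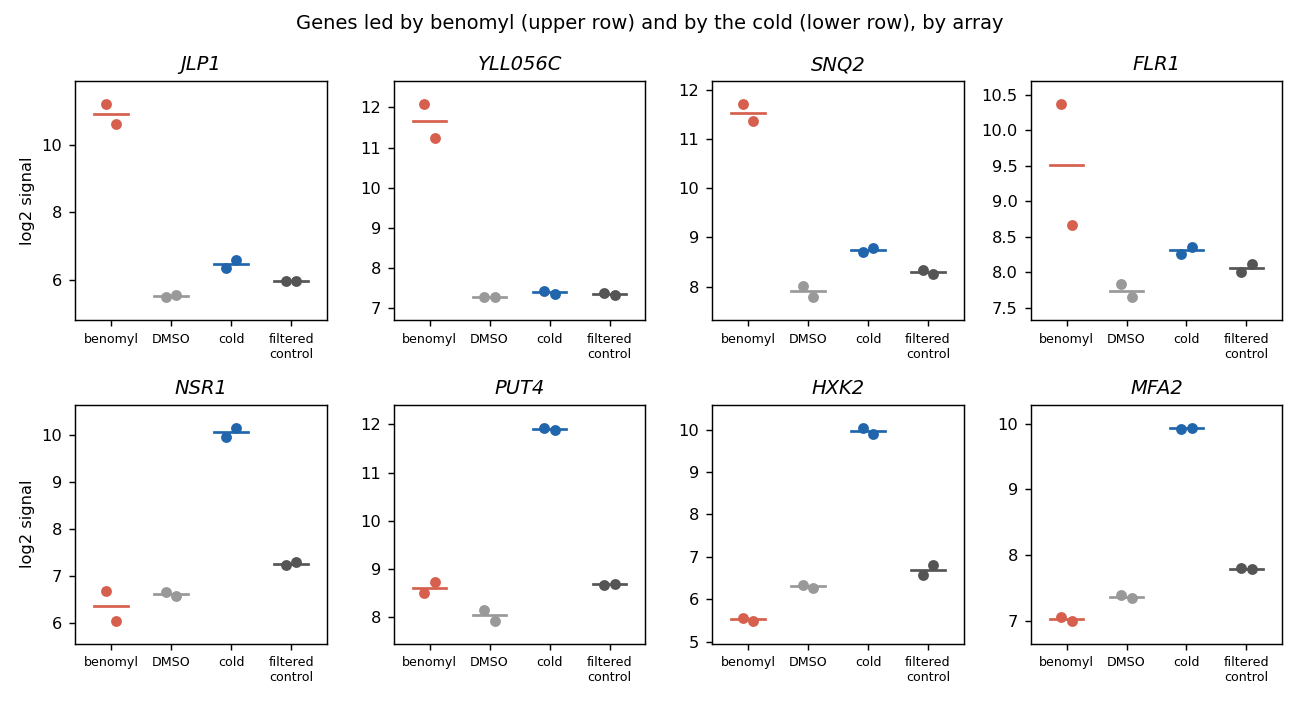
Log2 signal in each of the 8 arrays (points) by group, with horizontal bars for the group means, for 4 genes led by benomyl (upper row) and 4 led by the cold (lower row). The 2 benomyl arrays of FLR1 read 10.37 and 8.66, and the 2 cold arrays of HXK2 read 10.04 and 9.90.

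Genes specific to the cold and lower numbered 84 (1.54%), and for 53 of them the 95% interval of the benomyl effect lay within 2-fold. Late sporulation genes led the class. SPO19, a prospore membrane protein, read 9.19 in both benomyl arrays, 9.77 and 9.59 in the DMSO arrays, 4.58 and 4.43 in the cold arrays and 9.24 and 9.40 in the filtered controls, with a cold effect of -4.81 ± 0.39 (adjusted p = 2.68e-08), a benomyl effect of -0.49 ± 0.39 (adjusted p = 0.37) and a difference of 4.32 ± 0.55 (adjusted p = 2.34e-05). The cold arrays were close to the level before treatment, which averaged 4.15 in the same set, while the other 6 arrays lay above 9. These cold and earlier levels lay under the filter value of 5.44, as did those of SPR3 below. At such dim signal their closeness does not show that the level was held, and the size of the fall may be limited. SPR3, a sporulation septin, read 9.43 and 9.48 in the benomyl arrays, 10.04 and 10.13 in the DMSO arrays, 5.14 and 4.76 in the cold arrays and 9.57 and 10.04 in the filtered controls, against 4.24 before treatment, with a difference of 4.22 ± 0.48 (adjusted p = 8.7e-06). LDS2, of the spore wall lipid droplets, read 11.02 and 11.14 in the benomyl arrays, 11.83 and 11.97 in the DMSO arrays, 6.48 and 5.68 in the cold arrays and 10.99 and 11.17 in the filtered controls, and had a difference of 4.18 ± 0.56 (adjusted p = 3.21e-05). SPS2, a spore wall protein, and YGL138C, an unnamed reading frame, had differences of 3.25 ± 0.48 (adjusted p = 8.59e-05) and 2.44 ± 0.37 (adjusted p = 0.000117). The benomyl effects of SPR3, LDS2 and SPS2 were -0.63 (adjusted p = 0.176), -0.82 (adjusted p = 0.125) and -0.48 (adjusted p = 0.313). A missing call does not show that benomyl left these genes unchanged. Of the lists that hold them, 17 of 19 prospore genes and 19 of 24 spore wall genes fell under benomyl.

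CWP1, a cell wall mannoprotein, read 12.94 and 12.92 in the benomyl arrays, 13.31 and 13.36 in the DMSO arrays, 9.75 and 9.72 in the cold arrays and 12.73 and 13.01 in the filtered controls, with a difference of 2.73 ± 0.58 (adjusted p = 0.00187). MNE1, which acts in mitochondrial RNA splicing, fell by 2.08 in the cold, with a difference of 2.59 ± 0.73 (adjusted p = 0.0131). In the direct contrast 82 of the 84 were higher under benomyl and none lower. With the filtered control for both treatments 77 stayed in the class, and with the DMSO control 58.

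Genes specific to benomyl and lower numbered 124 (2.27%), and for 114 the 95% interval of the cold effect lay within 2-fold. CDC20, the activator of the anaphase-promoting complex, read 9.50 and 9.74 in the benomyl arrays, 11.31 and 11.19 in the DMSO arrays, 9.28 and 9.34 in the cold arrays and 9.59 and 9.84 in the filtered controls. The DMSO arrays alone stood high. Its benomyl effect was -1.63 ± 0.22 (adjusted p = 1.58e-05), its cold effect -0.41 ± 0.22 (adjusted p = 0.158) and the difference -1.22 ± 0.31 (adjusted p = 0.00692). PRR2, a protein kinase, read 7.84 in both benomyl arrays, 10.14 and 10.36 in the DMSO arrays, 7.83 and 7.70 in the cold arrays and 8.31 and 8.46 in the filtered controls, and NEJ1, a factor of DNA end joining, 4.94 and 4.98 in the benomyl arrays, 7.14 and 7.36 in the DMSO arrays, 4.45 and 4.91 in the cold arrays and 5.24 and 5.22 in the filtered controls. The reading frame YLR012C had the largest difference of the class, -2.64 ± 0.29 (adjusted p = 5.88e-06), and SAD1, a splicing factor, had one of -2.30 ± 0.24 (adjusted p = 3.24e-06). ERF2, of Ras palmitoylation, DPH1, of diphthamide synthesis, DCI1, a peroxisomal isomerase, and the reading frame YDL218W had differences between -1.83 and -1.74. For YDL218W the call was lost without benomyl replicate 1 or 2, DMSO replicate 2, cold replicate 2 or filtered control replicate 1, with adjusted p from 0.0638 to 0.103.

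This class did not outlast a change of control. Of the 124 genes, 117 were higher in the DMSO control than in the filtered control, and against the filtered control 11 were lower under benomyl. In the direct contrast 20 were lower and 11 higher under benomyl than in the cold, with a median of -0.01. With the filtered control for both treatments 2 of the 124 stayed in the class, and with the DMSO control 6. With either common control the differences of CDC20, NEJ1, PRR2 and DCI1 became 0.31, 0.28, 0.07 and 0.30, and those of ERF2 and YDL218W -0.29 and -0.33, none of them called.

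**Figure D5:**
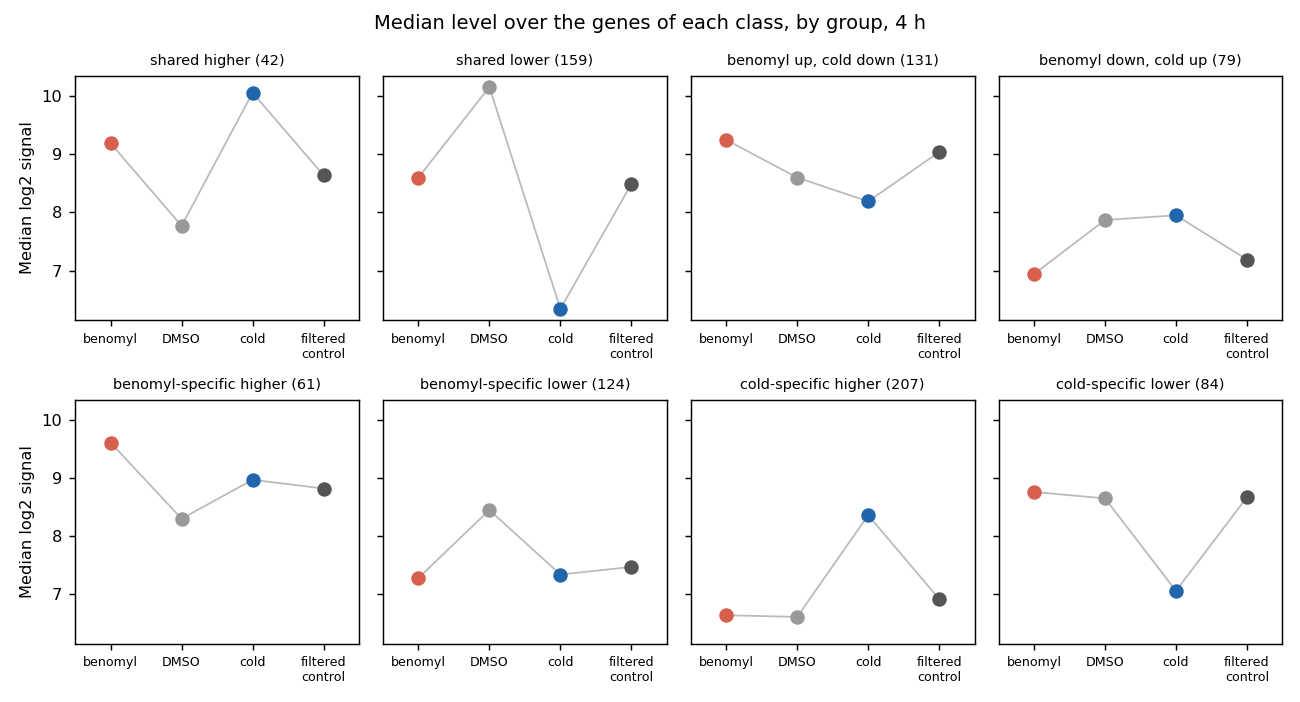
Median log2 signal over the genes of each class (panels) in the 4 groups, each group a mean of 2 arrays, with the number of genes in the title. In the shared lower and benomyl-specific lower panels the DMSO control stands highest, at 10.16 and 8.45, and the benomyl group lies near the filtered control.

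Of the tubulin genes, TUB1, TUB3 and TUB4 had a called difference of effects, with the lower effect in the cold. TUB1, the main alpha tubulin, read 12.59 and 12.63 in the benomyl arrays, 12.66 and 12.63 in the DMSO arrays, 11.65 and 11.68 in the cold arrays and 12.45 and 12.52 in the filtered controls, with no call for benomyl (-0.04), a called cold effect of -0.82 ± 0.14 (adjusted p = 9.79e-05) and a difference of 0.79 ± 0.19 (adjusted p = 0.00481). TUB2, the beta tubulin that benomyl binds, fell by 0.28 and 0.44, and its difference of 0.16, 95% interval -0.14 to 0.45, was not called. TUB3, the minor alpha tubulin, fell by 0.46 and 1.14, with a difference of 0.68 ± 0.18 (adjusted p = 0.00966). TUB4 had no call for benomyl (adjusted p = 0.995), a cold effect of -0.49 (adjusted p = 0.00399) and a difference of 0.49 ± 0.17 (adjusted p = 0.043). Changes of processing were not followed for TUB4. With arrays centred on their medians the adjusted p of the difference was 0.0809 for TUB1 and 0.169 for TUB3, and for TUB3 it was 0.123 on the deposited values and 0.0619 without benomyl replicate 2. Among all 16 genes of tubulins and their folding, 6 fell under benomyl, 7 fell and 2 rose in the cold, and the difference was called for 7. Over all genes 17.7% fell under benomyl, and 18.6% fell and 22.3% rose in the cold. The difference was called for 31.1% of all genes, a share that also applies to the checkpoint genes below. GIM4, a prefoldin subunit, fell with the drug by 1.05 and had a difference of -1.19 ± 0.24 (adjusted p = 0.00147), which was -0.26 (adjusted p = 0.233) with either control used for both treatments. The 8 spindle checkpoint genes gave 1 called difference, that of MAD3, -0.75 ± 0.23 (adjusted p = 0.0211). It was lost without benomyl replicate 1 (0.0749), DMSO replicate 2 (0.127), cold replicate 2 (0.0764) or filtered control replicate 2 (0.0901), the values being adjusted p, and with either control used for both treatments it turned to 0.57 (adjusted p = 0.00805). MAD2, the checkpoint effector, read 7.69 and 7.73 in the benomyl arrays, 7.91 and 7.93 in the DMSO arrays, 6.96 and 6.76 in the cold arrays and 7.24 and 7.20 in the filtered controls, and its difference of 0.15, 95% interval -0.33 to 0.62, was not called.

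The contrast differed between the sampling times. The difference of effects at 4 h was tested against the same difference at 1 h, and 1748 genes (32.0%) were called, 1063 higher at 4 h (19.5%) and 685 lower (12.5%), and 30.5% of probe sets. Of the called probe sets 54.5% were higher at 4 h, against 62.1% on the values as deposited and 47.5% with arrays centred on their medians, so the majority direction depended on the scaling. AGP1 moved by 7.57 ± 0.32 (adjusted p = 3.02e-11) and SPO19 by 7.50 ± 0.78 (adjusted p = 2.55e-06). FRM2, a nitroreductase-like gene, read 7.66 and 7.33 in the benomyl arrays, 7.28 and 7.16 in the DMSO arrays, 9.84 in both cold arrays and 7.90 in both filtered controls at 4 h, and moved by -7.35 ± 0.32 (adjusted p = 3.17e-11) from the 1 h difference. The benomyl and filtered-control arrays at 1 h had the lowest weights of the series when arrays were weighted by their agreement with the model, 0.144 and 0.303. Their part in this result was not tested.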

How the data were processed

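The members and lists were chosen with earlier results of these data known. RNA of 26 Affymetrix YG_S98 arrays was measured in 13 groups of 2, defined by the titles in the labels. The authors deposited 1 value per probe set and array, taken here as log2 from the range of 2.09 to 15.1, and how they were summarized is not given in the sources used here. The deposited instrument settings of 16 arrays, of other units, gave only the scan day. Of 9335 probe sets, 60 controls were left out and 7878 passed the filter, a highest group mean above the 25th percentile (5.44). Values were quantile normalized and fitted in R 4.3.3 by limma 3.58.1 to all 26 arrays, with 1 mean for every group, an intensity trend in the variance and 13 residual degrees of freedom. P-values were Benjamini-Hochberg adjusted over the 7878 probe sets, and called under 0.05.

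For each gene the brightest probe set assigned to that gene alone by the platform annotation was used, and 6504 probe sets had 1 gene, 328 several and 2443 none. Shared genes had both effects called, of the same sign and at least 2-fold. Opposite genes had both called with opposite signs. Genes specific to a treatment had its effect called and at least 2-fold, the difference called with the same sign, and the other effect not called. Named genes were the 8 leading members of each class whose treated and control arrays did not overlap, the 4 list members at most, per list, whose difference had the lowest adjusted p, the 3 largest changes from 1 h each way, and 11 genes named whatever their values. CDC27, DOC1, GCV1, GND1 and GND2 were chosen after their values were seen. Replicate numbers were not taken as pairs in the groups compared: residuals of same-numbered arrays correlated at 0.097 between benomyl and DMSO and at -6.5e-05 between cold and filtered control, and from -0.288 to 0.391 over all pairs of groups within a set of arrays. Only 2 arrays per group limit the precision. Promoter motifs were not analysed here. The fit was tested on simulated data.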

Additional observations from a re-analysis of the deposited data

Results flagged for a closer look

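The difference between the benomyl effect and the cold effect was itself tested between 4 h and 1 h after treatment, with limma on all arrays, and 2402 probe sets were called, 1308 higher at 4 h and 1094 lower. With arrays centred on their medians the calls were 1158 higher and 1282 lower, so the direction of the excess depended on the scaling. Among genes whose difference rose between the times, AGP1 moved by 7.57 on the log2 scale, SPO19 by 7.50 and the spore wall gene SPR2 by 6.82. Among genes whose difference fell, FRM2 moved by -7.35, the reading frame YKL070W by -6.76 and the reading frame YDL218W by -6.48. At 4 h the difference itself was -1.67 ± 0.23 (adjusted p = 4.12e-05) for FRM2, -0.76 ± 0.29 (adjusted p = 0.0596) for YKL070W and -1.83 ± 0.58 (adjusted p = 0.0254) for YDL218W. These 6 genes are the 3 with the largest change each way.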

How the results depend on the processing

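Taking a common control changed many results. Under a filtered control common to both treatments the benomyl effect was called for 1134 probe sets, the difference for 3717, and the shared, benomyl-specific and cold-specific classes held 31, 64 and 557 genes, with 190 opposite genes. With the DMSO control for both, the cold effect was called for 4794 probe sets, the difference for 3717, and the shared, opposite, benomyl-specific and cold-specific classes held 465, 101, 53 and 557 genes. With either common control the difference of effects became the same contrast of treated groups and turned its sign for CDC20 (0.31), DCI1 (0.30), GAT4 (1.14), MAD3 (0.57), NEJ1 (0.28), PRR2 (0.07), WSC4 (0.69) and YLR012C (0.00). Against the filtered control the benomyl effect turned its sign for CLB1 (0.10), DCI1 (0.05), IME2 (0.19), MAD2 (0.49), MAD3 (0.26), NDT80 (0.02), POL2 (-0.07), RLP24 (-0.69), SPR2 (0.17), SPS1 (0.26), THI73 (0.47), TIF11 (0.04), TUB2 (0.05), YGL138C (1.05) and YGL230C (0.43). Against the DMSO control the cold effect turned its sign for ATP16 (0.44), COX8 (0.69), DRS1 (-1.48), ERF2 (-1.24), ERG3 (0.63), GIM4 (-0.79), QCR2 (0.13), SAD1 (-1.51), TIF11 (-0.04) and TRX2 (0.53). The cause was not tested. No named effect that was called, in the reported fit or under the alternative, turned its sign under any other setting run, while differences that were not called did, such as that of PHO84 (-0.19, and 0.27 without benomyl replicate 2). Fitting only the 4 groups raised the benomyl calls to 3963, the difference calls to 3538 and the opposite genes to 538, and array weights to 4118, 3647 and 569. Leaving out the 1 h benomyl and filtered-control arrays, an alternative chosen after seeing the data, gave 3185 difference calls and 456 opposite genes. With no minimum size 822 genes were shared, 558 benomyl-specific and 667 cold-specific, and at an adjusted p under 0.01, 89 were opposite. Leaving out 1 array at a time gave 1516 to 2480 benomyl calls, 1909 to 2760 cold calls, 1494 to 1745 difference calls, 1922 to 3156 calls between the controls (1922 without DMSO replicate 2), 1974 to 2164 calls between the times, and 174 to 209 shared, 119 to 157 opposite, 134 to 210 benomyl-specific and 248 to 328 cold-specific genes. With the replicate number as a block the benomyl, cold and difference calls were 2547, 2844 and 2084, and among named effects the block ended 1 call, SPR2 under benomyl, and made 1, DIC1 under benomyl. Of the calls between the controls, 68.5% were higher with DMSO on the values as deposited, against 47.2%. Median centring moved the median probe set by -0.13 in the contrast between times. The counting of promoter motifs was not run.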

Other observations

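The lists in this section were chosen after the values had been seen, and those above with earlier results of these data known. The counts of both are descriptions that give no support of their own. Over all genes 20.4% rose and 17.7% fell under benomyl, and 22.3% rose and 18.6% fell in the cold. The difference was called for 15.6% each way. Against the filtered control 6.44% were higher under benomyl and 6.57% lower, and in the direct contrast 24.8% were higher under benomyl. These shares apply to all lists of this section. The 13 subunits of the anaphase-promoting complex, the ubiquitin ligase that starts chromosome separation, fell in 11 cases under benomyl and in 12 in the cold, with medians of -1.36 and -1.46. CDC27 read 10.11 and 10.0 in the benomyl arrays, 11.63 and 12.02 in the DMSO arrays, 8.62 and 8.32 in the cold arrays and 10.15 and 10.34 in the filtered controls, and its effects of -1.77 and -1.77 differed by 0.00, 95% interval -0.55 to 0.56. DOC1 fell in the cold by -1.34, with a benomyl effect of 0.21 ± 0.18 (adjusted p = 0.403). Against the filtered control, 0 of the 13 subunits were called lower under benomyl, and in the direct contrast 12 were higher under benomyl than in the cold.

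Genes for 1-carbon and purine metabolism rose with the drug. Of 9 glycine cleavage and 1-carbon genes, 8 rose under benomyl and none fell, while 2 rose and 5 fell in the cold. Against the filtered control 4 of the 9 were higher under benomyl and 1 lower. GCV1, a subunit of the glycine cleavage complex, read 12.06 and 12.02 in the benomyl arrays, 11.27 and 10.98 in the DMSO arrays, 9.16 and 9.05 in the cold arrays and 11.57 and 11.50 in the filtered controls, with a difference of 3.34 ± 0.29 (adjusted p = 3.69e-07). Of 9 measured adenine synthesis genes, 8 rose under benomyl and none fell, and the difference was higher for 6. Against the filtered control 3 of the 9 were higher under benomyl. ADE17, of the last steps of purine synthesis, read 9.49 and 9.07 in the benomyl arrays, 8.04 and 8.10 in the DMSO arrays, 7.76 and 8.14 in the cold arrays and 8.48 and 8.44 in the filtered controls, with a difference of 1.73 ± 0.27 (adjusted p = 0.000139). Of 6 biotin genes 4 rose under benomyl and none fell, and all 6 were higher under benomyl than in the filtered control. GND1 and GND2, which encode the major and minor 6-phosphogluconate dehydrogenases, moved against each other under both treatments. GND1 fell by -1.33 and -1.55, and GND2 rose by 1.86 and 1.11.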
